A study of Mus musculus with 18 samples.

Results

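Gene expression in the colon was compared between mice given the Lactobacillus plantarum strain ZJ316-COM after dextran sulfate sodium (the COM group, n = 4) and mice given PBS after dextran sulfate sodium (the DSS group, n = 3). The comparison covers genes that reached 1 FPKM in 3 or more of these 7 libraries, which were 12864 of the 18349 genes in the table. FPKM counts sequenced fragments scaled to the length of the transcript and to the size of the library. The series holds 18 libraries of bulk RNA from whole colon of male C57BL/6 mice whose genotype is given as WT. Dextran sulfate sodium is a sulfated polysaccharide that injures the colonic epithelium when it is drunk, and both groups drank it at 2.5% for 7 days. The COM mice were then gavaged with a suspension of ZJ316-COM for 5 weeks, at 200 µL per 10 g of body weight. The DSS mice were gavaged with the same volume of PBS every day over the same 5 weeks. Levels are also given for mice gavaged with ZJ316 (WT, n = 4) or with ZJ316-KO (KO, n = 4) after the same dextran sulfate sodium, and for mice on water (Control, n = 3). What KO and COM stand for is not in the labels, nor are the ages of the mice or the time of day at which tissue was taken. The series title concerns a bacteriocin, which is an antibacterial peptide made by bacteria, and the purine and histidine metabolism of gut microbes. Libraries are numbered but not tied to single animals in the labels, so each p-value rests only on the spread among these samples, which may be technical.

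Of the 12864 genes, 2 passed the test (0.0155%), and both were higher in COM: Dbp and Tef, a pair of related transcription factors driven by the circadian clock. The test was limma's moderated test on log2(FPKM + 1), with a Benjamini-Hochberg adjusted p under 0.05 over all genes tested. No gene that was lower in COM passed. At an unadjusted p under 0.05 there were 578 genes on the higher side (4.49% of those tested) and 838 on the lower side (6.51%). The median log2 fold change over all genes was -0.016, and 50 genes differed by at least 1 on the log2 scale. For the genes that did not pass, values are given below as measured levels and not as changes. A gene is described as separate between the groups where its 4 COM values lie all above or all below its 3 DSS values. That held for 876 genes with COM higher (6.81%) and 1173 with COM lower (9.12%).

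**Figure D1:**
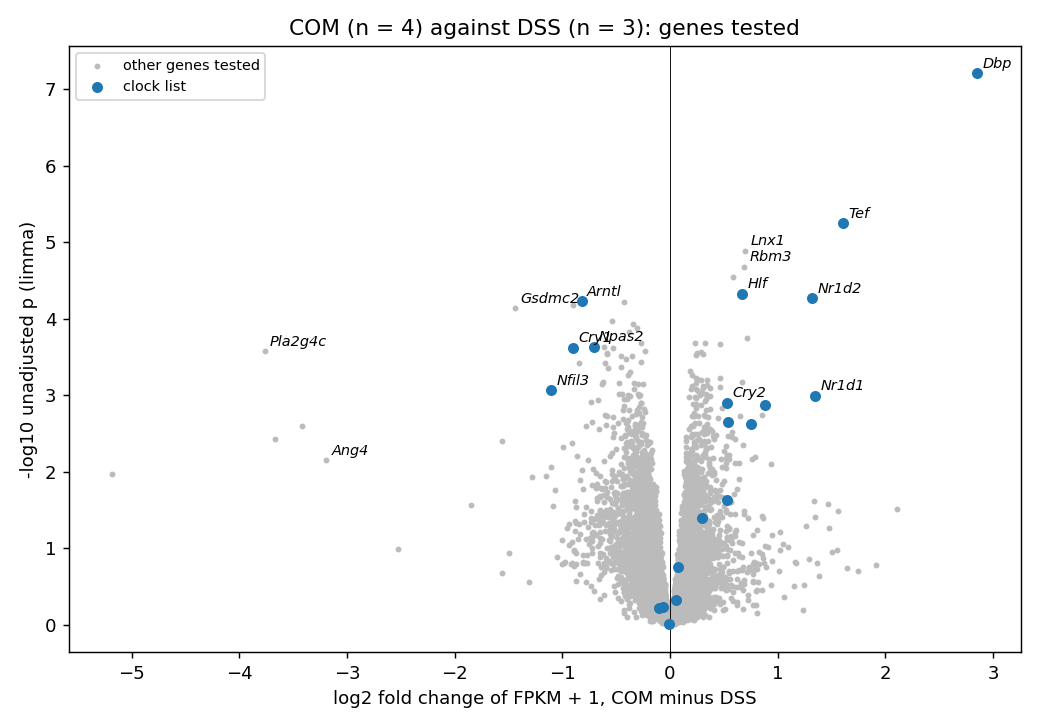
Each point is 1 gene tested; the x axis is the log2 fold change of FPKM + 1 (COM minus DSS) and the y axis is -log10 of limma's unadjusted p. Members of the clock list are blue, and Dbp and Tef at the upper right were the only genes with an adjusted p under 0.05.

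Some libraries stood apart in genes that belong to other tissues or mark gut position, and these values are repeated where they touch a result. Pancreatic acinar genes, 18 in the list, summed to 1315 to 38235 FPKM in DSS and to 551 to 939 FPKM in COM, with DSS 1 and DSS 3 highest, and none of them was at 0 in all 7 libraries. Squamous epithelium genes averaged 2.65 on the log2(FPKM + 1) scale in DSS 2 and 2.60 in COM 3, against 0.57 to 0.66 in the other 5. Hoxb6, a homeobox gene, lay at 1.41, 1.34 and 1.26 FPKM in DSS and at 16.1, 14.8, 1.24 and 1.2 FPKM in COM. COM 1 and COM 2 were thus apart from all the DSS libraries and from COM 3 and COM 4. The bile acid transporter gene Slc10a2 was also highest in COM 1 and COM 2, at 2.12, 2.45 and 1.67 FPKM in DSS and 26.4, 26.6, 5.62 and 5.02 FPKM in COM. Both genes were picked after their values were seen. The 10 distal gut Hox genes did not set these libraries apart: the list averaged 3.72, 3.50, 3.95 and 3.75 on the log2(FPKM + 1) scale in COM and 3.76, 4.20 and 2.87 in DSS, where DSS 3 was lowest. Hoxd13, the last gene of its cluster, lay at 52.8, 102 and 6.67 FPKM in DSS and 64.1, 56.1, 72.9 and 48.2 FPKM in COM. In the other groups, Control 3 had the lowest Hox list mean of the 18 libraries, 1.61, and Hoxd13 at 0 FPKM. KO 2 had a Hox list mean of 2.61 and Hoxd13 at 1.71 FPKM. KO 3 averaged 8.97 for the acinar list. These libraries enter the Control and KO means below and the spread shared by the 5 groups. The part of gut position in those means was not tested. Adipocyte genes, 10 in the list, averaged 2.94, 2.24 and 3.03 in DSS and 3.45, 4.28, 2.84 and 2.12 in COM, so that COM 1 and COM 2 were above every DSS library. They summed to 77.6 to 155 FPKM in DSS and 68.7 to 419.6 FPKM in COM, and all 9 tested were positive, with a median of 0.49. Interferon-induced genes averaged 5.63 in COM 2 and 3.61 to 4.06 in the other 6 libraries. The colonocyte gene Vil1, which encodes the microvillus protein villin, lay between 187 and 249 FPKM in the 7 libraries.

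**Figure D2:**
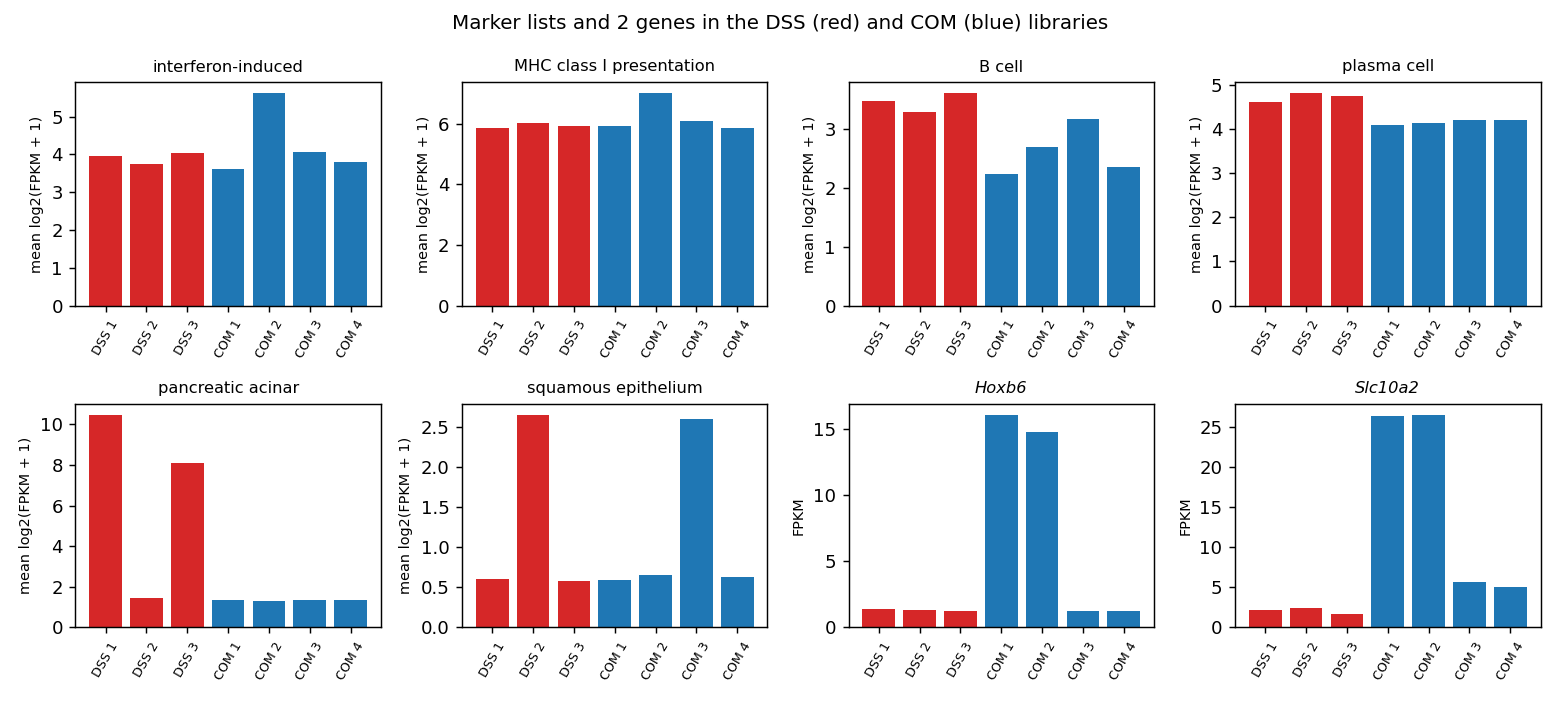
Mean log2(FPKM + 1) of 6 gene lists and the FPKM of Hoxb6 and Slc10a2 in the 3 DSS (red) and 4 COM (blue) libraries, as bars from 0. Acinar genes were high in DSS 1 and DSS 3, squamous genes in DSS 2 and COM 3, interferon-induced genes in COM 2, and Hoxb6 and Slc10a2 in COM 1 and COM 2.

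The circadian clock is a feedback loop in which Arntl (BMAL1) with Clock or Npas2 activates genes through E-boxes in their promoters. Among the activated genes are Per and Cry, whose proteins block the activators, and Nr1d1 and Nr1d2 (REV-ERB), which repress Arntl. Dbp, Tef and Hlf are output factors that bind the D-box, and Nfil3 is a repressor that competes for the same element. In the gut the loop runs in epithelial and other cells and is set by feeding time as well as by light. Of the 21 genes in the clock list, 20 were tested and Bhlhe41 was not.

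The promoters of 4 of these genes are shown because the letters of these elements occur in them. They were chosen after the values were seen. The sequences are from RefSeq (GRCm38.p6), upstream of the annotated gene, and read 5′ to 3′ on the gene's strand. Capitals mark the E-box CACGTG or the D-box TTATGTAA, which were searched on both strands and did not overlap each other.
Tef, chr15:81802423-81802672, plus strand, E-box: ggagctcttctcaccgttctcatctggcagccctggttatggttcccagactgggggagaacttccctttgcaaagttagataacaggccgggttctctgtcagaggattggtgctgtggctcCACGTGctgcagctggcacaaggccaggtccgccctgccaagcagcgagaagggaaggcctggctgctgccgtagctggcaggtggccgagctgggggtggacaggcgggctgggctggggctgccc
Ciart, chr3:95882258-95882478, minus strand, E-boxes: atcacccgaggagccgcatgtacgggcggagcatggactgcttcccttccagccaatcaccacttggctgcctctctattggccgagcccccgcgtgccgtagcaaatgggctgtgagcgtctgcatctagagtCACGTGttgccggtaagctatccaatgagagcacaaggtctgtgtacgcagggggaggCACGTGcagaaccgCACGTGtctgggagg
Cry1, chr10:85185055-85185304, minus strand, E-box: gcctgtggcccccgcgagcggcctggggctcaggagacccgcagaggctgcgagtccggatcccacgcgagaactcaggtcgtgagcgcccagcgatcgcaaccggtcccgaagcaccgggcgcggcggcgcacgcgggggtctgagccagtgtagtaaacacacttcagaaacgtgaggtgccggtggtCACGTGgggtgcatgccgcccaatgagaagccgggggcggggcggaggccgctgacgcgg
Per3, chr4:151044708-151044915, minus strand, D-boxes: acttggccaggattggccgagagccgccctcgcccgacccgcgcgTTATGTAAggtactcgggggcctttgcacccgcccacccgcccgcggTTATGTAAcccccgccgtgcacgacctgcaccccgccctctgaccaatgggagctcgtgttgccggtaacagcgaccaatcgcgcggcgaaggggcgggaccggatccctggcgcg
In windows of 250 bases before the start site, 17 of the 21 genes had an entry, and an E-box was also present in Per1 and Bhlhe41. Counted per gene, 9.74% of 10285 tested genes had an E-box in such a window and 0.622% a D-box. Counted per window, the shares were 6.02% and 0.819% of 32851 RefSeq promoters. A ROR element (NNTAGGTCA, in 2.02% of tested genes and 2.21% of windows) was present in Nfil3. The windows of Dbp, Arntl, Nr1d1 and Nr1d2 held none of these letters. A match describes the letters in the window and not a bound site.

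Dbp encodes the D-box binding protein, a PAR bZIP transcription factor (chromosome 7, 45705100 to 45710203, GRCm38.p6). It lay at 1.63, 3.04 and 1.08 FPKM in DSS 1 to 3 and at 19.2, 24.3, 20.3 and 14.6 FPKM in COM 1 to 4. Every COM library was above every DSS library, and the lowest COM value was several times the highest DSS value. Dbp rose by 2.85 ± 0.30 (log2 fold change of FPKM + 1 ± SE, adjusted p = 8.06e-04, limma), from a mean of 1.92 ± 1.01 to 19.6 ± 3.98 FPKM (± SD, n = 3 and n = 4). Its mean was 1.31 ± 0.26 FPKM in Control, 4.17 ± 2.44 in WT and 14.4 ± 4.03 in KO. In order of mean level, COM and KO overlapped in their libraries while WT lay below both. COM exceeded WT by 2.08 ± 0.28 (adjusted p = 0.0179), the only call of that comparison. COM minus KO was 0.43 ± 0.28 (adjusted p = 0.606). The call of Dbp against DSS was lost without COM 1 and COM 2 (2.70, adjusted p = 0.0558) and without DSS 1 and DSS 3, which leaves 1 DSS library (2.33, adjusted p = 0.724).

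Tef encodes the thyrotroph embryonic factor, the closest relative of Dbp in this list together with Hlf (chromosome 15, 81802673 to 81826863). It lay at 5.88, 7.46 and 4.09 FPKM in DSS and at 19.3, 21.5, 19.7 and 16.9 FPKM in COM. The groups did not overlap, and COM values were close to each other. Tef rose by 1.60 ± 0.24 (adjusted p = 0.0365, limma), from 5.81 ± 1.69 to 19.3 ± 1.9 FPKM. The mean was 8.25 ± 3.59 FPKM in WT and 13.5 ± 2.51 in KO, and COM minus WT was 1.2 ± 0.22 (adjusted p = 0.126) and COM minus KO 0.50 ± 0.22 (adjusted p = 0.428). Tef was called under 11 of 22 alternative settings, and it was not called when any 1 library other than DSS 2 was left out. Hlf, the third member of the family, lay at 0.53, 0.98 and 0.53 FPKM in DSS and at 1.73, 2.13, 1.53 and 1.29 FPKM in COM. Its libraries were separate at a low level, with 0.67 ± 0.12 (adjusted p = 0.0848). Every DSS value was under 1 FPKM, so Hlf met the filter only through COM, the group where it was high.

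Nr1d2 encodes REV-ERB beta, a repressor of Arntl. Its values were 9.03, 12.1 and 6.66 FPKM in DSS and 25.5, 23.9, 23.1 and 23.7 FPKM in COM, so that COM lay above DSS throughout. The log2 fold change was 1.32 ± 0.24 (adjusted p = 0.0848), short of the threshold. Its partner Nr1d1 (REV-ERB alpha) lay at 30.2, 36.2 and 18.3 FPKM in DSS and 63.3, 64.4, 80.04 and 76.2 FPKM in COM, again without overlap (1.35 ± 0.33, adjusted p = 0.164). Mean levels of Nr1d1 were 11.7 ± 6.35 FPKM in Control, 47.1 ± 7.34 in WT and 55.2 ± 16.1 in KO.

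The period and cryptochrome genes encode the inhibitory arm of the loop. Per1 lay at 5.21, 6.1 and 6.62 FPKM in DSS and 9.62, 9.34, 9.4 and 8.07 FPKM in COM (0.54 ± 0.15, adjusted p = 0.219). Per2 lay at 5.14, 5.66 and 4.95 FPKM in DSS and 6.91, 9.73, 7.02 and 8.75 FPKM in COM (0.53 ± 0.21, adjusted p = 0.381). For Per3, whose stretch above holds D-box letters, the values were 2.87, 4.26 and 3.02 FPKM in DSS and 6.8, 5.83, 6.04 and 6.72 FPKM in COM (0.76 ± 0.21, adjusted p = 0.221). In all 3 the COM libraries were above the DSS libraries. Ciart, a circadian repressor with 3 E-boxes in the stretch above, lay at 0.69, 1.03 and 0.8 FPKM in DSS and 1.81, 4.3, 2.02 and 1.93 FPKM in COM, with COM 2 highest (0.89 ± 0.23, adjusted p = 0.178). DSS 2 alone of the DSS libraries reached 1 FPKM, so Ciart met the filter only through COM, the group where it was high. The cryptochromes were on opposite sides. Cry2 lay at 4.11, 5.15 and 3.37 FPKM in DSS and 6.24, 6.04, 7.43 and 6.15 FPKM in COM (0.53 ± 0.13, adjusted p = 0.176). Cry1 lay at 11.2, 9.9 and 10.8 FPKM in DSS and 5.15, 6.34, 4.86 and 4.68 FPKM in COM (-0.90 ± 0.19, adjusted p = 0.118), and its Control mean was 21.03 ± 3.02 FPKM.

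The activators and Nfil3 lay on the lower side in COM. Arntl was at 30.8, 29.7 and 29.9 FPKM in DSS and 15.7, 13.5, 19.6 and 18.2 FPKM in COM (-0.82 ± 0.15, adjusted p = 0.0848). Its DSS values were within a narrow range and all above COM, and WT and KO means were 25.3 ± 0.73 and 19.8 ± 0.92 FPKM. Npas2, which can replace Clock, lay at 19.1, 22.3 and 21.2 FPKM in DSS and 11.7, 10.1, 15.1 and 12.96 FPKM in COM (-0.71 ± 0.15, adjusted p = 0.118). Nfil3 lay at 7.13, 6.23 and 8.68 FPKM in DSS and 2.86, 3.95, 2.23 and 2.57 FPKM in COM (-1.10 ± 0.27, adjusted p = 0.164). Clock itself overlapped between the groups (-0.07 ± 0.12), as did the nuclear receptor Rora (0.06 ± 0.08), the repressor Bhlhe40 (0.30 ± 0.13) and the kinases Csnk1d (0.08 ± 0.05) and Csnk1e, whose mean was 11.5 ± 1.63 FPKM in DSS and 11.4 ± 0.5 FPKM in COM.

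Of the 20 clock genes tested, 2 passed, 10 were separate with COM higher and 4 with COM lower, beside 6.81% and 9.12% of all genes. The 10 include Hlf and Ciart, which met the filter only through COM. The median log2 fold change of the 20 genes was 0.41, against -0.016 over all genes, and values ran from -1.10 in Nfil3 to 2.85 in Dbp. The counts were 11 and 4 without COM 1 and COM 2, 13 and 4 without DSS 2 and COM 3, and 10 and 7 without DSS 1 and DSS 3. Fewer libraries leave more genes separate: over all genes the shares were 14.4% and 18.5%, 15.3% and 15.7%, and 19.3% and 33% in these settings. The time of day of tissue collection is not in the labels, and its part in the values of clock genes was not tested. The comparisons of COM, WT and KO with DSS share the DSS libraries, and group means are therefore set side by side in the plot of clock genes.

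**Figure D3:**
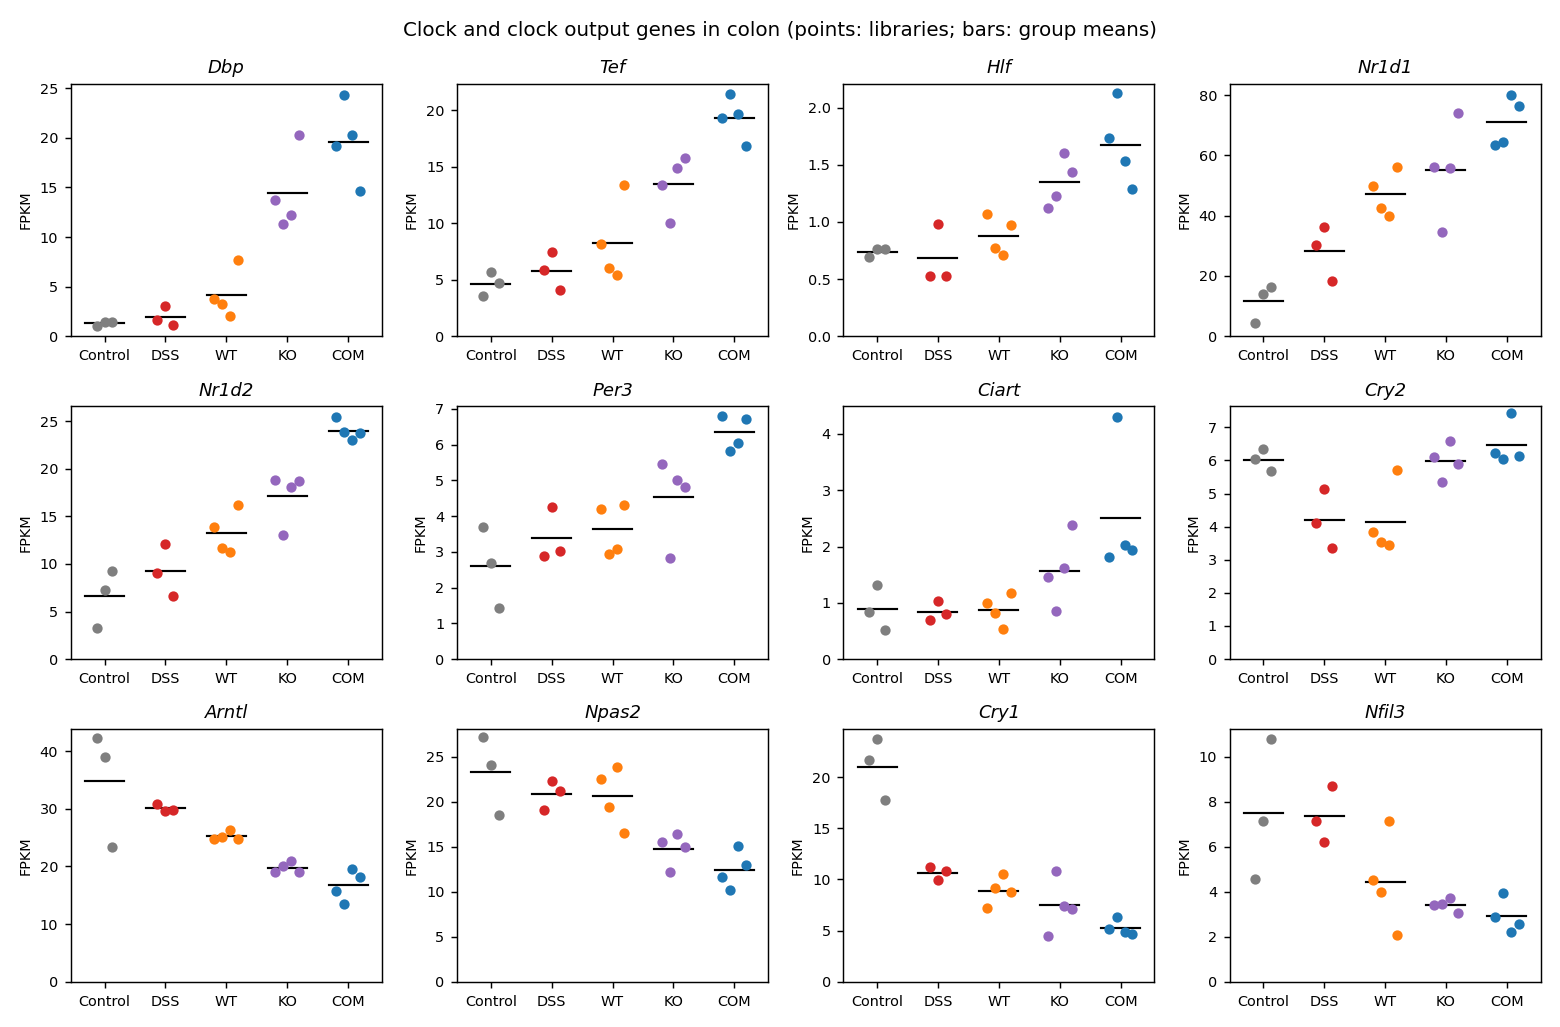
FPKM of 12 clock and clock output genes in each of the 18 libraries (points) with the group mean (bar), for Control, DSS, WT, KO and COM. In the 8 panels of the upper rows the COM libraries lie above the DSS libraries, and in Arntl, Npas2, Cry1 and Nfil3 they lie below them.

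Of 675 distinct members of the 52 gene lists that were tested, Dbp and Tef were the 2 that passed. Besides the clock genes, the naming rule took the genes with the smallest p in each direction, none of which passed. Lnx1, an E3 ubiquitin ligase, lay at 7.02, 7.33 and 6.12 FPKM in DSS and 12.5, 9.92, 12.3 and 12.02 FPKM in COM (0.69 ± 0.11, adjusted p = 0.0558). Rbm3, a cold-inducible RNA binding protein whose mRNA is known to cycle with body temperature, lay at 68.8, 88.7 and 67.7 FPKM in DSS and 117, 137, 122 and 108 FPKM in COM (0.69 ± 0.12, adjusted p = 0.068). The groups were separate for both, and the KO mean of Rbm3 was 119 ± 3.05 FPKM. Ccdc116, Cystm1, the ubiquitin conjugating enzyme gene Ube2d2a, the ribokinase gene Rbks and the phosphatase gene Cdkn3 were also separate with COM higher, by 0.59, 0.72, 0.23, 0.33 and 0.47 (adjusted p = 0.0732 for Ccdc116 and 0.118 for the other 4). Heat shock genes as a list had 1 of 15 members separate (6.67%), which was Rbm3, beside 6.81% of all genes with COM higher. The median of the list was -0.02.

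On the lower side the rule took Ccdc181, the glycosylation enzyme gene Alg1, the mitochondrial import gene Tomm34, the Notch glycosyltransferase gene Lfng, the helicase gene Ddx41 and Dennd11. Their log2 fold changes were -0.42, -0.34, -0.30, -0.38, -0.27 and -0.61, and each was separate (adjusted p = 0.0848 to 0.118). Zbtb16 (PLZF), a transcription factor induced by glucocorticoids and found in some lymphocytes, lay at 3.35, 2.95 and 2.76 FPKM in DSS and 0.95, 1.43, 0.97 and 1.31 FPKM in COM. It was separate (-0.90 ± 0.17, adjusted p = 0.0848), with means of 2.9 ± 0.57 FPKM in WT, near DSS, and 1.07 ± 0.46 in KO, near COM. Another glucocorticoid-responsive gene, the kinase gene Sgk1, lay on the other side at 55.3, 39.1 and 68.4 FPKM in DSS and 96.1, 69.6, 108 and 107 FPKM in COM (0.81 ± 0.40, adjusted p = 0.474).

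Several abundant epithelial genes were lower in COM without passing the test. Gsdmc2, a gasdermin of gut epithelium from a family whose cleaved members form membrane pores, lay at 641, 909 and 498 FPKM in DSS and 234, 236, 265 and 238 FPKM in COM (-1.44 ± 0.27, adjusted p = 0.0848). All 4 COM values were less than any DSS value and within a narrow range, and means were 281 ± 69.3 FPKM in WT and 551 ± 101 in KO. COM minus KO was -1.16 ± 0.25 (adjusted p = 0.153). Its paralogs Gsdmc4 (1010.4, 1147 and 974 FPKM in DSS and 523, 499.8, 560.1 and 642 FPKM in COM, -0.91 ± 0.27) and Gsdmc3 (-0.69 ± 0.26) were separate in the same direction (adjusted p = 0.252 and 0.351). These are near-identical neighbouring genes, so reads could have been split between them. The other 3 gasdermins tested overlapped, with positive values.

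Ang4, a secreted antimicrobial ribonuclease of Paneth and goblet cells, lay at 995, 792 and 639 FPKM in DSS and 84.8, 48.3, 131 and 103 FPKM in COM. The highest COM value was well under the lowest DSS value (-3.19 ± 1.03, adjusted p = 0.295). WT had 185 ± 100.4 FPKM, KO 894 ± 412 and Control 227 ± 355, and COM minus KO was -3.23 ± 0.95 (adjusted p = 0.244). The KO and Control means include KO 2 and Control 3, the libraries low in Hoxd13. The phospholipase gene Pla2g4c, singled out after its values were seen, lay at 38.9, 12.2 and 24.7 FPKM in DSS and 0.99, 0.82, 0.76 and 0.49 FPKM in COM (-3.76 ± 0.81, adjusted p = 0.118). Every COM value was under 1 FPKM, so Pla2g4c met the filter only through DSS, the group where it was high. The lectin gene Itln1 was at 10.1, 7.99 and 3.94 FPKM in DSS and 1.84, 1.56, 1.5 and 1.82 FPKM in COM (-1.56 ± 0.46, adjusted p = 0.252), and the lysozyme gene Lyz1 at 28.9, 31.4 and 30.5 FPKM in DSS and 12.3, 14.7, 19.4 and 18.6 FPKM in COM (-0.88 ± 0.35, adjusted p = 0.383). Both were separate with COM lower. Of 20 epithelial defence genes tested, 5 were separate with COM lower and 0 with COM higher. At an unadjusted p under 0.05 there were 4 lower and 0 higher, and the median was -0.33. Of all genes, 9.12% were separate with COM lower and 6.51% had an unadjusted p under 0.05 on that side. The list had 15 members below 0 and 5 above, up to 1.23. Its mean log2(FPKM + 1) in COM 1, 6.41, was above every DSS library (at most 6.39). Fitted to the DSS and COM libraries alone, the test passed 18 of 12864 genes, 7 with COM higher and 11 with COM lower. Among the 11 were Gsdmc2, Gsdmc4, Ang4, Pla2g4c, Zbtb16 and Cry1, none of which passed in the fit as reported.

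Goblet cells secrete the mucus that covers the colon. The mucus protein gene Fcgbp lay at 748, 669.7 and 744 FPKM in DSS and 463, 437, 488 and 496 FPKM in COM (-0.61 ± 0.24, adjusted p = 0.371). Clca1, a goblet cell metalloprotease, lay at 2661, 2518 and 3253 FPKM in DSS and 1789, 1184, 1939.9 and 1959 FPKM in COM (-0.73 ± 0.31, adjusted p = 0.422), and Spink4, a protease inhibitor of goblet cells, at 1223, 1006 and 1401 FPKM in DSS and 741, 851, 611 and 877 FPKM in COM (-0.65 ± 0.28, adjusted p = 0.419). With Tff3 (-0.28), these 4 of the 16 goblet cell genes were separate with COM lower, and the list's median was -0.09, close to that of all genes. Without DSS 1 and DSS 3, which leaves DSS 2 as the only DSS library, the goblet cell median was 0.09. DSS 2 had the lowest DSS mean of this list, and without DSS 2 and COM 3 the median was -0.15. The chloride channel regulators had 6 of 6 tested members on the lower side (median -0.42), of which Clca1 and Clca3a1 (-0.37) were separate. In tuft cells, the chemosensory cells of the epithelium, Il17rb (-0.42 ± 0.12, adjusted p = 0.239) and Alox5ap (-0.54 ± 0.18, adjusted p = 0.314) were separate with COM lower, 2 of 9 tested. For these lists, the share of all genes separate with COM lower was 9.12% with all 7 libraries.

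**Figure D4:**
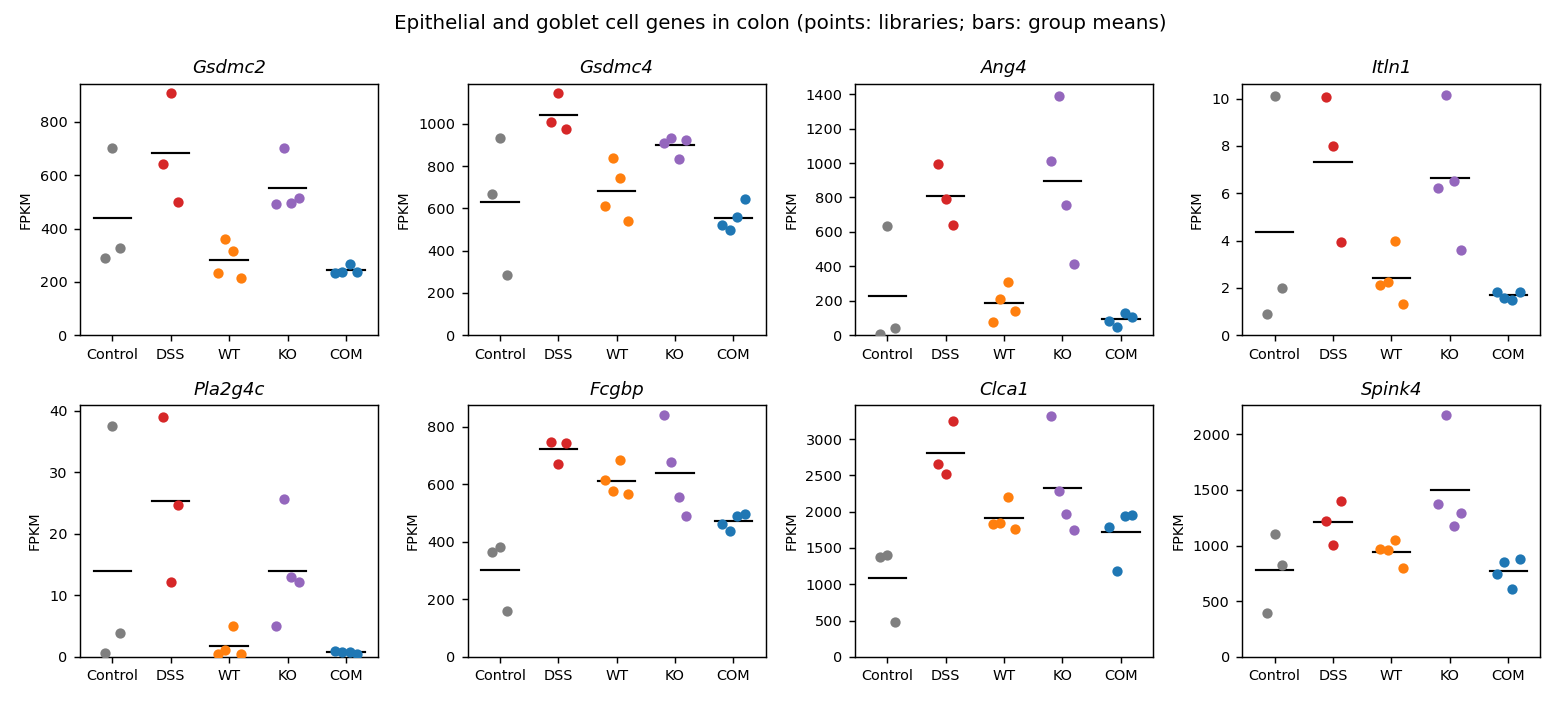
FPKM of 8 epithelial and goblet cell genes in each library (points) with the group mean (bar) for the 5 groups. The COM libraries lie below all DSS libraries in each panel, and the KO libraries of Ang4, at a mean of 894 FPKM, lie near those of DSS.

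Absorptive and metabolic genes lay mostly on the higher side. Cholesterol synthesis had 12 of 19 members separate with COM higher and 0 with COM lower, 10 with an unadjusted p under 0.05, 0 called, and a median of 0.32. Among all genes 6.81% were separate with COM higher, and 4.49% had an unadjusted p under 0.05 on that side. Sqle, squalene epoxidase, lay at 33.7, 29.1 and 35.7 FPKM in DSS and 49.4, 60.5, 53.5 and 43.7 FPKM in COM (0.64 ± 0.21, adjusted p = 0.296). The lowest COM value was above the highest DSS value, as it was for Nsdhl (0.48) and Sc5d (0.35), which act in later steps of the pathway. Means of Sqle were 47.7 ± 6.78 FPKM in WT and 57.6 ± 5.17 in KO. Without COM 1 and COM 2 the count was 14 of 19 and the median 0.27, beside 14.4% of all genes separate with COM higher.

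Xenobiotic metabolism genes, which detoxify and export foreign compounds, had 8 of 24 members separate with COM higher and 0 with COM lower, 5 with an unadjusted p under 0.05, and a median of 0.36. The shares of all genes with COM higher were 6.81% separate and 4.49% at that unadjusted p. The cytochrome P450 gene Cyp2c55 lay at 229.9, 186 and 252 FPKM in DSS and 820.3, 883, 404 and 334 FPKM in COM (1.34 ± 0.54, adjusted p = 0.382). COM 1 and COM 2, the libraries high in Hoxb6, had the highest values, and COM 3 and COM 4 still lay above DSS. The drug efflux pump gene Abcb1a was less uneven, at 111, 113 and 115 FPKM in DSS and 169, 152, 151 and 169.6 FPKM in COM (0.50 ± 0.21, adjusted p = 0.401). Gsta1 (0.60) and Ces2a (0.43) were separate too. Without COM 1 and COM 2 the median of the list was 0.18, with 12 of 24 separate with COM higher and 2 with COM lower, beside 14.4% and 18.5% of all genes.

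Among absorptive colonocyte genes, Car1, the cytosolic carbonic anhydrase of colonocytes, lay at 949.5, 782 and 716 FPKM in DSS and 5102, 4136, 1358 and 1148 FPKM in COM (1.56 ± 0.66, adjusted p = 0.419). COM 1 and COM 2 were again far above COM 3 and COM 4. Vil1 was more even, at 192, 204 and 187 FPKM in DSS and 249, 247, 240.1 and 232 FPKM in COM (0.31 ± 0.08, adjusted p = 0.201). Separate members numbered 4 of 15, all with COM higher, beside 6.81% of all genes, and the median was 0.21. Fatty acid oxidation genes had 16 of 16 members above 0 and 6 separate, with a median of 0.26 that was 0.10 without COM 1 and COM 2. The list averaged 5.47, 5.57, 5.03 and 5.05 on the log2(FPKM + 1) scale in COM and 4.97, 4.85 and 5.07 in DSS. COM 1 and COM 2, high in Hoxb6, Slc10a2 and adipocyte genes, were again highest, and the part of gut position or of adipose tissue in the values of Car1, Cyp2c55 and these genes was not tested. Examples of fatty acid oxidation were the carnitine carrier Slc25a20 (0.34 ± 0.12), the dehydrogenase Acadm (0.23 ± 0.10) and Ehhadh (0.43 ± 0.20), with adjusted p = 0.346, 0.415 and 0.453. Of 19 ion and water transport genes, 4 were separate with COM higher, beside 6.81% of all genes. Among the 4 were the sodium pump subunit Atp1b1 (0.16) and the exchanger Slc9a2 (0.35).

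Markers of B cells, plasma cells and macrophages lay on the lower side in COM, and none passed limma's test. In bulk tissue, fewer cells of a type and less RNA per cell cannot be told apart. B cell genes had 13 of 13 members below 0 and 11 separate with COM lower, 1 with an unadjusted p under 0.05, and a median of -0.84. Of all genes, 9.12% were separate with COM lower and 6.51% had an unadjusted p under 0.05 on that side. Spib, a transcription factor of B cells and of M cells, lay at 14.03, 11.98 and 15.5 FPKM in DSS and 7.01, 8.05, 10.7 and 8.07 FPKM in COM (-0.66 ± 0.31, adjusted p = 0.453). The B cell kinase gene Blk lay at 4.85, 3.94 and 4.81 FPKM in DSS and 1.74, 2.12, 3.55 and 1.88 FPKM in COM (-0.76 ± 0.36), and Fcer2a (CD23) at 6.81, 5.39 and 5.81 FPKM in DSS and 1.76, 3, 4.43 and 2.41 FPKM in COM (-0.88 ± 0.43), with adjusted p = 0.463 and 0.479. COM 3 was the highest COM library in all 3, and without it 13 of 13 were separate, beside 12.1% of all genes with COM lower. The count was 11 without COM 1 and COM 2 (18.5% of all genes) and 11 without DSS 1 and DSS 3 (33% of all genes). Mean levels of Spib were 6.8 ± 1.96 FPKM in WT, 9.32 ± 2.97 in KO and 9.83 ± 5.22 in Control, beside 8.45 ± 1.56 in COM and 13.8 ± 1.76 in DSS. For Blk they were 2.11 ± 0.8 FPKM in WT, 2.49 ± 1.13 in KO and 1.97 ± 1.57 in Control, beside 2.32 ± 0.83 in COM and 4.53 ± 0.51 in DSS. The WT, KO and Control means of both genes thus lay nearer to COM than to DSS.

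Plasma cell genes had 7 of 9 members separate with COM lower, 4 with an unadjusted p under 0.05, and a median of -0.65. Derl3, which serves protein quality control in secretory cells, lay at 9.49, 10.02 and 10.2 FPKM in DSS and 5.99, 5.77, 5.06 and 6.18 FPKM in COM (-0.69 ± 0.33, adjusted p = 0.454). Irf4, a transcription factor of plasma cells, lay at 4.13, 5.29 and 4.86 FPKM in DSS and 2.38, 2.67, 3.22 and 2.44 FPKM in COM (-0.65 ± 0.27, adjusted p = 0.418), and Prdm1 (Blimp-1) had -0.38 ± 0.15 (adjusted p = 0.382). The DSS and COM libraries of these genes did not overlap. Unfolded protein response genes, which secretory cells also use, had 3 of 15 separate with COM lower (Creld2 -0.40, Sdf2l1 -0.39 and Pdia4 -0.29) and a median of -0.23. The shares of all genes with COM lower were 9.12% separate and 6.51% with an unadjusted p under 0.05.

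Macrophage genes had 6 of 14 members separate with COM lower, 1 with an unadjusted p under 0.05, and a median of -0.31. Beside them, 9.12% of all genes were separate with COM lower and 6.51% had an unadjusted p under 0.05 on that side. Csf1r, the receptor for colony stimulating factor 1, lay at 16.2, 19.9 and 15.5 FPKM in DSS and 9.41, 11.7, 12.04 and 12.7 FPKM in COM (-0.54 ± 0.24, adjusted p = 0.432), and the lipopolysaccharide co-receptor gene Cd14 at 43.6, 47.2 and 55.5 FPKM in DSS and 27.2, 38.7, 30.9 and 36.1 FPKM in COM (-0.55 ± 0.26, adjusted p = 0.46). Without DSS 1 and DSS 3, which leaves DSS 2 as the only DSS library, the macrophage median was -0.61. DSS 2 had the highest DSS mean of this list, and without DSS 2 and COM 3 the median was -0.23. Csf1r and Cd14 were separate, as were Cx3cr1 (-0.45) and Adgre1 (-0.42), the gene of F4/80. Neutrophil genes had 7 of 7 tested members below 0, 1 of them separate, and a median of -0.30, and without COM 1 and COM 2 there were 4 of 7 above 0 and a median of 0.05. S100a9, a subunit of calprotectin, lay at 2.19, 15.8 and 6.61 FPKM in DSS and 1.47, 1.27, 19.9 and 2.69 FPKM in COM (-0.70 ± 0.74). DSS 2 and COM 3, the libraries high in squamous genes, were the highest of their groups, and the part of squamous tissue in this was not tested. T and NK cell genes had 1 of 14 separate, Cd2 (-0.74), and a median of -0.10. NF-kB targets had 13 of 14 members below 0, 3 of them separate, beside 9.12% of all genes separate with COM lower. Rel, a subunit of NF-kB, lay at 3.03, 3.98 and 3.43 FPKM in DSS and 1.74, 2.36, 2.25 and 2.32 FPKM in COM (-0.50 ± 0.15, adjusted p = 0.273).

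Interferon-induced and MHC class I genes were mostly positive with all libraries and mixed without COM 2. Iigp1, an immunity-related GTPase, was at 4.44, 4.81 and 5.49 FPKM in DSS and at 3.92, 149, 11.3 and 3.76 FPKM in COM, and Igtp at 10.9, 11.1 and 13.3 FPKM in DSS and 9.92, 144, 20.1 and 12.2 FPKM in COM. COM 2 stood far above the other libraries in both. Log2 fold changes were 1.29 ± 0.82 and 1.02 ± 0.59 (adjusted p = 0.577 and 0.539). Of 33 interferon-induced genes tested, 30 were positive with all libraries and 11 without COM 2, and the median was 0.30 and -0.06. All 11 MHC class I genes were positive, B2m among them (1163, 1201 and 1385 FPKM in DSS and 1546, 3058, 1314 and 1254 FPKM in COM), and without COM 2 the count was 7 of 11. MHC class II genes had 3 of 10 separate with COM lower, beside 9.12% of all genes, and 9 of 10 without COM 2, where 14.2% of all genes were. The tryptophan-degrading enzyme gene Ido1 (16.1, 168, 11.6 and 9.86 FPKM in COM) and the urate oxidase gene Uox (0.65, 20.2, 2.15 and 0.98 FPKM) were highest in COM 2 as well.

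No gene of the stromal and vascular lists passed limma's test. Fibroblast and collagen genes had 13 of 16 members below 0 and 3 separate (Fbln1 -0.37 and Col6a2 -0.41 among them), 3 with an unadjusted p under 0.05, and a median of -0.27. With all 7 libraries, 9.12% of all genes were separate with COM lower and 6.51% had an unadjusted p under 0.05 on that side. Smooth muscle genes had 7 of 12 members above 0 and 0 separate, 0 with an unadjusted p under 0.05, and a median of 0.03. Blood endothelial genes had 11 of 12 below 0, 4 with an unadjusted p under 0.05 and 3 separate, among them Vwf, von Willebrand factor (-0.33 ± 0.10, adjusted p = 0.281), and Pecam1 (-0.27). Matrix proteases and their inhibitors had 0 of 13 separate and 3 with an unadjusted p under 0.05, with Mmp10 at 3.64, 4.92 and 5.25 FPKM in DSS and 0.94, 2.57, 1.94 and 5.15 FPKM in COM (-0.73 ± 0.33, adjusted p = 0.439), where COM 4 lay among the DSS libraries. Leaving out DSS 1 and DSS 3, the libraries high in acinar genes, leaves DSS 2 as the only DSS library. DSS 2 had the highest DSS mean of the fibroblast, blood endothelial and matrix protease lists (5.50, 2.93 and 2.99 on the log2(FPKM + 1) scale). The medians of these lists were then -0.53, -0.31 and -0.50, beside -0.04 over all genes. Without DSS 2 and COM 3, the libraries high in squamous genes, they were -0.19, -0.15 and -0.16, beside -0.002 over all genes. The part of pancreatic tissue in these values was not tested.

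Host genes of purine and histidine metabolism were described because the series title names these pathways in microbes, and none passed limma's test. At an unadjusted p under 0.05 there were 1 higher and 1 lower gene in purine synthesis and salvage, 1 higher in purine breakdown, 1 lower among extracellular nucleotide genes and 1 higher among histidine genes. Over all genes, 4.49% were on the higher side and 6.51% on the lower side at that threshold. In purine synthesis and salvage, 15 genes were tested, 2 were separate with COM higher and 1 with COM lower, and the median was -0.05. The shares of all genes that were separate were 6.81% with COM higher and 9.12% with COM lower. Aprt, which salvages adenine, lay at 73.2, 76.8 and 69.3 FPKM in DSS and 81.01, 81.5, 82.5 and 94.1 FPKM in COM (0.21 ± 0.08, adjusted p = 0.338), and the adenosine kinase gene Adk at 57.8, 46.6 and 59.9 FPKM in DSS and 84.4, 78.7, 61.7 and 63.9 FPKM in COM (0.39 ± 0.20, adjusted p = 0.488). Both were separate. Adk was highest in COM 1 and COM 2. Adsl of the synthesis branch overlapped (-0.23 ± 0.09), as did the salvage enzyme gene Hprt (0.12 ± 0.07).

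In purine breakdown 1 of 10 genes was separate, the nucleotidase gene Nt5c2 at 5.52, 5.09 and 4.94 FPKM in DSS and 6.31, 6.69, 6.85 and 6.19 FPKM in COM (0.28 ± 0.10, adjusted p = 0.342), and Ada (-0.10 ± 0.18) and Ampd2 (-0.04 ± 0.08) overlapped. Among genes of extracellular nucleotides and adenosine, the ATP receptor gene P2rx7 lay at 4.47, 5.47 and 5.49 FPKM in DSS and 3.92, 3.93, 3.76 and 3.83 FPKM in COM (-0.33 ± 0.13, adjusted p = 0.368). The ectonucleotidase-related gene Entpd5 lay on the other side, at 36.2, 33.2 and 36.5 FPKM in DSS and 54.5, 50.3, 41.8 and 40.9 FPKM in COM (0.39 ± 0.22, adjusted p = 0.518). Both were separate, and Enpp1 (-0.14) and Adora2a (-0.15) were not. Of 14 genes tested in this list, 1 was separate with COM higher and 2 with COM lower. There were 12 below 0, and the list's median was -0.14. Of 16 histidine and histamine genes, 8 were tested. Hnmt, which inactivates histamine by methylation, lay at 1.63, 1.35 and 1.39 FPKM in DSS and 2.47, 2.5, 1.94 and 1.7 FPKM in COM (0.35 ± 0.15, adjusted p = 0.402) and was the separate one. Hars2 (-0.14), Hrh1 (-0.16) and Cndp2 (0.12) overlapped, and the median was -0.01. Beside the separate genes of these lists stand 6.81% of all genes with COM higher and 9.12% with COM lower.

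**Figure D5:**
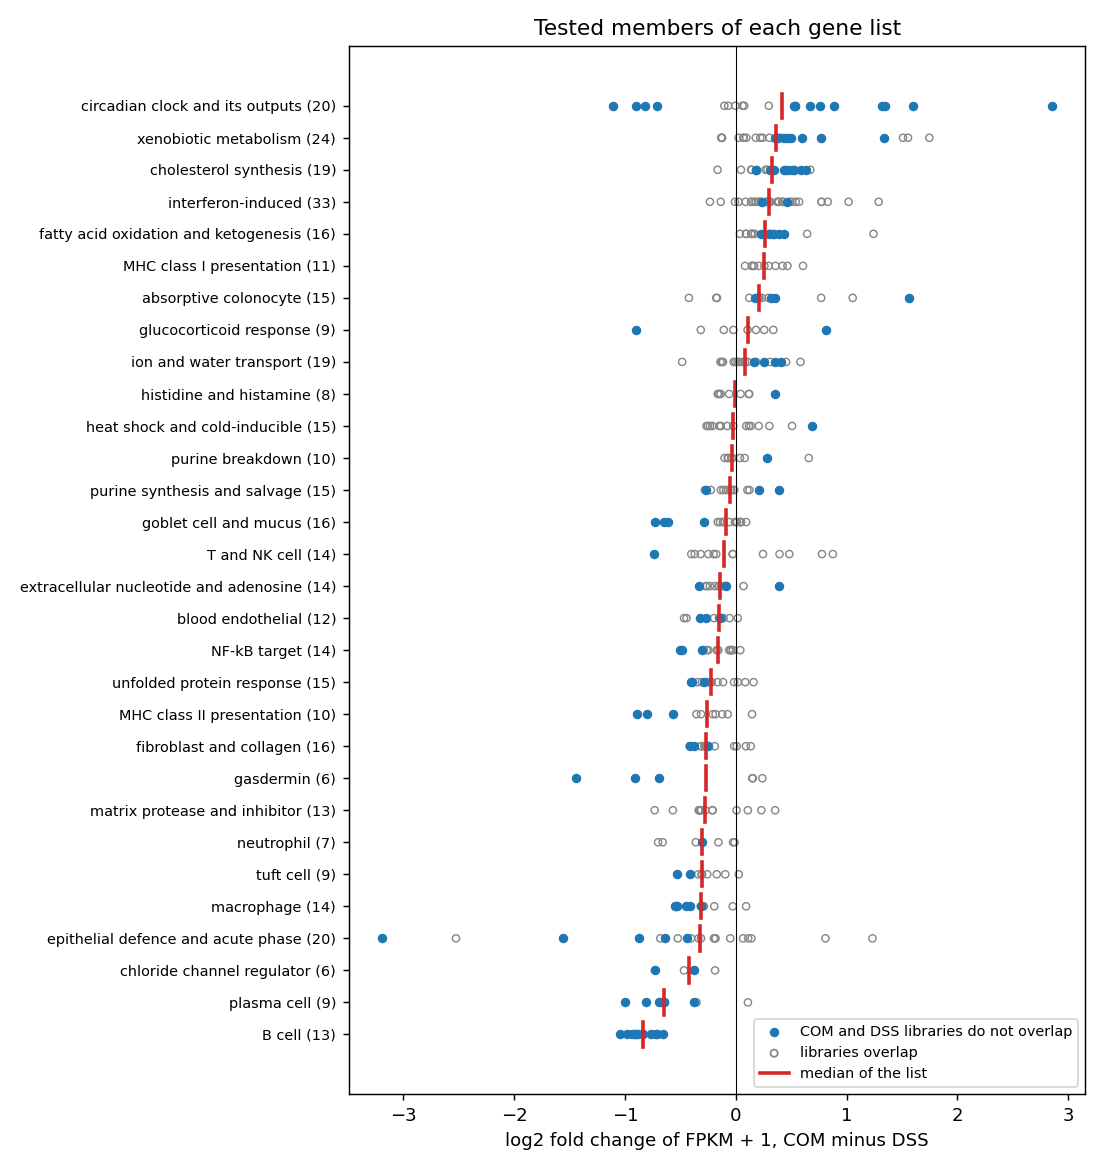
Log2 fold change of FPKM + 1 (COM minus DSS) of the tested members of 30 gene lists (number tested in brackets), ordered by the list median (red). Filled points are genes whose COM and DSS libraries do not overlap. Among these 30 lists, B cell genes lie lowest at a median of -0.84, with 13 of 13 below 0. Clock genes lie highest at 0.41, with members on both sides. Of lists not plotted, adipocyte genes had a median of 0.49 and the 3 acinar genes tested -1.85.

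COM was also tested directly against the other strains on the same genes. Against WT, 1 gene passed (0.00777%), which was Dbp, and 1460 had an unadjusted p under 0.05 (11.3%). Against KO, 4 passed (0.0311%): Banp, a DNA binding nuclear protein, Ints8, a subunit of the Integrator complex, the RNA binding protein Fxr1 and the zinc finger gene Zfp414. Banp lay at 5.53, 4.52, 4.28 and 4.72 FPKM in KO and 7.78, 10.2, 8.66 and 11.8 FPKM in COM (0.87 ± 0.11, adjusted p = 0.0107), and it overlapped with DSS (9.27, 8.48 and 11.5 FPKM). Ints8 lay at 8.63, 9.79, 10.9 and 10.1 FPKM in KO and 13.4, 12.8, 12.5 and 14.3 in COM (0.40 ± 0.06, adjusted p = 0.0479), and Fxr1 at 20.1, 19.5, 21.4 and 22.4 FPKM in KO and 25.8, 27.5, 25.7 and 26.7 FPKM in COM (0.33 ± 0.05, adjusted p = 0.0479). For these 3 genes every KO library lay below every COM and DSS library, and COM and DSS overlapped. Zfp414 lay at 14.1, 14.3, 13.4 and 13.8 FPKM in KO and 8.82, 9.41, 10.1 and 11.5 FPKM in COM (-0.45 ± 0.07, adjusted p = 0.0315), and COM was also below DSS (-0.26 ± 0.07, adjusted p = 0.223). Leaving out 1 library left 0 to 2 calls against KO, and 0 without KO 2, without KO 4 or without COM 2. Against WT there were 24 calls without WT 4 and 0 without any other single WT library or without COM 1, COM 2 or COM 3.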

How the data were processed

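RNA from whole colon was sequenced in 18 libraries, and 1 table of FPKM values per gene was deposited by the authors. The genome build was mm10, per the submitters' processing notes. The aligner and quantifier were not given in the sources used here. The FPKM values give no read counts, so the depth is unknown and no counting interval was computed. Total FPKM was 518101 to 537426 in the 7 libraries compared, and 16610 to 16816 genes were above 0. Columns were matched to samples by name, and 18230 of 18349 gene IDs matched a symbol in RefSeq (GRCm38.p6). No pair of the 7 libraries compared shared more than 0.521% identical values over the genes tested.

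Genes reaching 1 FPKM in 3 or more of the 7 libraries were tested on log2(FPKM + 1) with limma 3.58.1 (R 4.3.3). The model held all 18 libraries in 5 groups, which then share 1 estimate of the spread, with a mean-dependent prior variance. P-values were two-sided and adjusted by Benjamini-Hochberg, with a threshold of 0.05. A fold change on this scale understates the change of low genes. The script was tested on simulated data. The text names the 15 called genes per direction with the largest change, without overlap and with a mean of at least 5 FPKM, and the 10 genes of lowest p on a side where fewer than 3 passed. It also names up to 4 members of each described gene list, called ones first. The gene lists and members were chosen with earlier results of these data known. Promoters are the 250 bases before the RefSeq start, and those printed were shortened where the window ran into the annotated span of the same gene. Alternatives covered the pseudocount, the filter, the scaling, the samples in the fit, array weights, a replicate block and each library left out.

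Replicate numbers are shared by the groups, but libraries with the same number did not deviate together (correlations over genes of 0.27, -0.29 and -0.35), so they were not used as pairs. Single libraries carrying other tissues were kept, and values without them are given. Results for some genes of the lists are not reported here.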

Additional observations from a re-analysis of the deposited data

Results flagged for a closer look

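Of 177 values checked in the 4 COM libraries (genes named and list means), 16 had 1 library far from the other 3, where chance alone places about 1 in 20 groups. COM 2 was high for Ifih1, a sensor of viral RNA (40.98 FPKM), the chaperone gene Hspa5 (308.9 FPKM), Ciart (4.3 FPKM) and the mean of the histidine and histamine list (2.23 on the log2 scale). The same library was low for Lnx1 (9.92 FPKM), Ccdc116 (6.87 FPKM) and Hrh1 (2.75 FPKM). COM 3 was high for Gsdmc2 (265.03 FPKM), Cry2 (7.43 FPKM) and the mean of the neutrophil list (1.99 on the log2 scale), and low for the mean of the tuft cell list (1.49). COM 1 was high for Gsta1 (28.15 FPKM) and low for the macrophage gene Adgre1 (3.29 FPKM) and for Rel (1.74 FPKM). COM 4 was high for Aprt (94.09 FPKM) and low for Per1 (8.07 FPKM).

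In the direct tests between strains, 5 genes had COM and another group apart. Dbp was higher in COM than in WT by 2.08 on the log2 scale (adjusted p = 0.0179, limma). Against KO, COM was higher in Banp by 0.87, in Ints8 by 0.40 and in Fxr1 by 0.33, and Zfp414 fell by 0.45, each with an adjusted p under the threshold. The Banp call was the one seen when COM 1, COM 3 or KO 1 was left out.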

How the results depend on the processing

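The number of genes called between COM and DSS, 2 in the fit as reported, was 1 with no filter, 5 with quantile normalization, 18 with only the 2 groups in the fit, 1 with the replicate block and 495 with array weights (277 higher, 218 lower). It was 0 without DSS 1 and DSS 3 (778 at an unadjusted p under 0.05), 1 without DSS 2 and COM 3, and 0 without COM 1 and COM 2 (815 at an unadjusted p under 0.05). It ranged from 1 to 4 when 1 library was left out. Called members of the gene lists, 2 as reported, numbered 1, 4, 11, 1, 47, 0, 1 and 0 in the same order, and 1 to 4 over single libraries left out. The array weights ran low for Control 3 (0.136) and high for DSS 1 (2.91), the library with most acinar RNA, and they passed 9 clock genes higher and 4 lower.

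The single call against WT became 0 with a pseudocount of 0.1, 2 with no filter, 2 with quantile normalization, 0 with only the 2 groups and 421 with array weights. It was 0 to 24 over single libraries left out and 0 in each case without acinar-rich libraries, without squamous-rich ones and without COM 1 and COM 2. The 4 calls against KO became 2 with quantile normalization, 1 when rescaled without acinar genes, 1 with only the 2 groups, 0 with the replicate block, 7 with array weights, 0 with a fold threshold of 1 on the log2 scale and 1 with a trend on length and GC content removed. They became 0, 0 and 1 under these same 3 exclusions, and ranged from 0 to 2 over single libraries left out. The cause was not tested.

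Log2 fold changes (COM minus DSS) that changed sign were those of genes overlapping between the groups. Csnk1e was 0.00639 with quantile normalization, 0.0157 with TPM, 0.00557 with the replicate block, 0.0570 with array weights, 0.123 without the squamous-rich libraries and 0.0329 with the length and GC trend removed. Ampd2 was 0.0600 without the squamous-rich libraries and 0.00653 with that trend removed. Over single libraries left out, Csnk1e ranged from -0.0787 to 0.0981, Ampd2 from -0.0981 to 0.0261 and Uox from -0.162 to 1.07. Without the acinar-rich libraries, Bhlhe40 was -0.0316, Csnk1d -0.00306 and Ada 0.0184. S100a9 was 0.0473 with array weights and 0.244 without COM 1 and COM 2, where Gzmb was -0.0562. Without COM 1 and COM 2 is a setting chosen after seeing the data. The acinar-rich libraries are DSS 1, DSS 3 and KO 3, and the squamous-rich ones DSS 2, COM 3 and WT 2. FPKM without read counts leaves the depth of each value unknown.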
